A study of Phaseolus vulgaris
Paraburkholderia phymatum STM815 with 4 samples.

Results

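The peptidase inhibitor genes CDS:ESW05274, CDS:ESW05314 and CDS:ESW05315 of common bean (*P. vulgaris*), named without the prefix from here on, were followed in root nodules formed by a *nifA* mutant or the wild-type of *P. phymatum*. They are 3 of the 32574 bean features in the deposited tables and 3 of the 2607 on chromosome 11. Their locus tags are PHAVU_011G166500g, PHAVU_011G169800g and PHAVU_011G169900g. The members were picked by name, because the study listed these transcripts as more abundant in *nifA* nodules under the gene ontology terms peptidase inhibitor activity and endopeptidase inhibitor activity. The same libraries that chose them are described here, so the difference between the nodules is given as a description of the members and not as a test. The study's transcript list describes each of them only as a hypothetical protein, and the inhibitor family is not given in the sources used here.

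Nodules of cv. Negro Jamapa, grown on nitrogen-free medium, were formed either by the *nifA* insertional mutant of *P. phymatum* STM815 or by its wild-type parent. They were harvested at 21 dpi, with 2 libraries per strain. NifA is the transcriptional activator of the bacterial nitrogen fixation genes. RNA of plant and bacterium was sequenced together. The names of the *nifA* and wild-type libraries carry different years, so that the effect of the strain and of that year cannot be told apart. Whole nodules were used, and a larger share of cells that express a gene cannot be told apart from more transcript per cell.

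Plant peptidase inhibitors are small proteins that bind to peptidases and block their active site. They hold back the breakdown of stored protein in seeds and tubers, and many are induced by wounding, insects or pathogens. In legume nodules, peptidases act during the turnover of host and bacteroid protein and are known for their rise when nodules senesce, and inhibitors are among the proteins that limit them.

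The libraries held 14169013 and 10640013 uniquely mapped bean reads in *nifA* nodules, and 8526065 and 14004263 in wild-type nodules. A few features took a larger share of these reads in the mutant. The 5 highest features held 61.3% and 45.5% of the unique reads of the *nifA* libraries, against 12.7% and 32.9% in wild-type libraries. In *nifA* replicate 1, 2625 of the 13793 features with at least 10 reads in replicate 2 had none, but the 3 inhibitor genes were not among them. Reads on *nifD*, which encodes a nitrogenase subunit, numbered 4 and 31 in *nifA* and 54865 and 42462 in wild-type libraries. The other subunit gene, *nifK*, had 34 and 76 in *nifA* and 36893 and 24524 in wild-type libraries, and each of the 2 copies of *nifH* had at most 14 in *nifA* and at least 406 in wild-type libraries. Bean nodule markers such as leghemoglobin were not analysed here, since no readable feature description named one. *P. phymatum* genes held 7.97% and 12.0% of the unique gene reads of both organisms in *nifA* libraries, and 38.0% and 32.0% in wild-type libraries. Both the bacterial share and the weight of the highest features therefore moved with the strain, and their part in the results was not tested.

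The 3 genes lie on the reverse strand within 464 kb of chromosome 11, in the coordinates of the files, which do not name their build. ESW05274 runs from 43602971 to 43603594, ESW05314 from 44060236 to 44060847 and ESW05315 from 44066282 to 44066905. ESW05314 and ESW05315 are direct neighbours with 5434 bases and no other feature between them. ESW05274 stands 457 kb apart from them, with 39 features in between. The genes are short and alike in length. ESW05274 and ESW05315 each span 624 bases and ESW05314 spans 612, and all these lengths are divisible by 3.

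ESW05315 was the most abundant of the 3 genes in *nifA* nodules. It had 356 and 223 unique reads in *nifA* libraries and 29 and 72 in wild-type libraries. Counting reads that also fit elsewhere, these numbers were 569 and 389 in *nifA* and 58 and 114 in wild-type libraries. Both *nifA* libraries therefore stood above both wild-type libraries, with unique and with all gene reads. The 95% exact Poisson interval was 195 to 254 around the lower *nifA* count of unique reads and 56.3 to 90.7 around the higher wild-type count. Such an interval covers counting error only, not the spread between libraries or their depth, and the reads carry no molecular identifiers. After TMM scaling the normalized count was 380 ± 166 (SD, n = 2) in *nifA* and 40.0 ± 18.7 (SD, n = 2) in wild-type nodules, a log2 fold change of 3.24 ± 0.61 (SE). In normalized counts the replicates of ESW05315 differed more from each other, relative to their mean, than those of the other genes.

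Its direct neighbour ESW05314 had the closest replicates in normalized counts. It had 212 and 215 unique reads in *nifA* libraries and 48 and 54 in wild-type libraries. Every read on ESW05314 was unique, 529 of 529 over the 4 libraries. The Poisson intervals were 184 to 243 around the lower *nifA* count and 40.6 to 70.5 around the higher wild-type count. Normalized counts were 275 ± 30.6 (SD, n = 2) in *nifA* and 42.1 ± 3.08 (SD, n = 2) in wild-type nodules. This gave a log2 fold change of 2.70 ± 0.52 (SE), the smallest of the 3.

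ESW05274, the distant gene, was the lowest in unique reads in every library. It had 134 and 104 unique reads in *nifA* libraries and 17 and 32 in wild-type libraries. With all gene reads the numbers were 220 and 176 in *nifA* and 29 and 55 in wild-type libraries. By that count ESW05274 was not the lowest in *nifA* replicate 1 and wild-type replicate 2, where ESW05314 had 212 and 54. The wild-type count of 17 is the smallest of the 12 and has a Poisson interval of 9.90 to 27.2, far above the 3 reads taken as the smallest count that this depth can show. Normalized counts were 155 ± 45.9 (SD, n = 2) in *nifA* and 19.7 ± 5.64 (SD, n = 2) in wild-type nodules (log2 fold change 2.97 ± 0.76, SE).

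**Figure D1:**
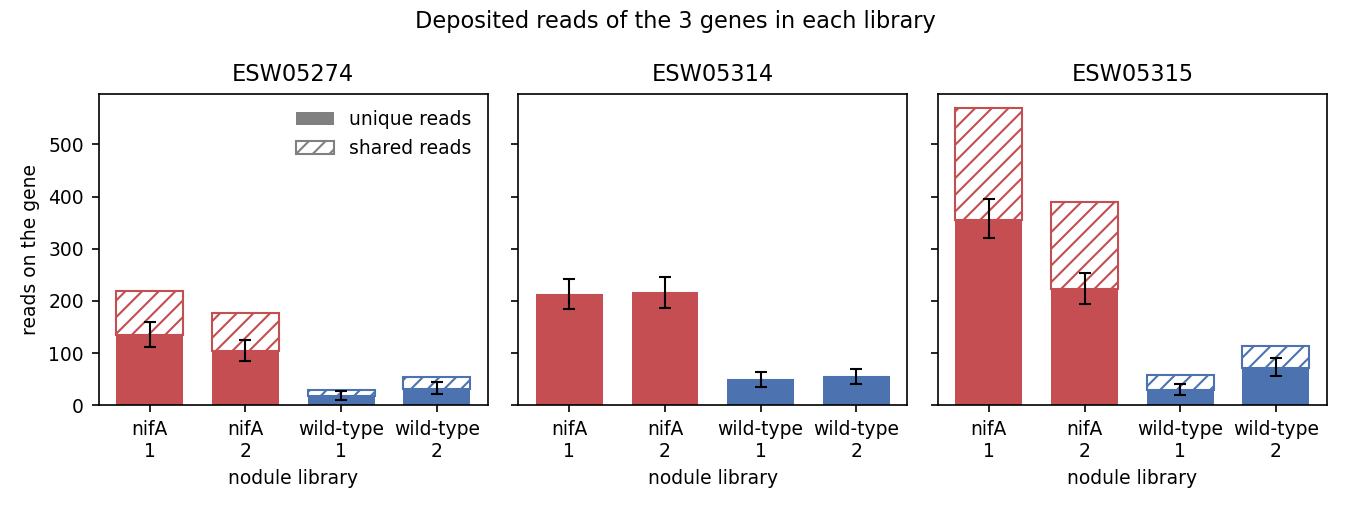
Deposited reads of ESW05274, ESW05314 and ESW05315 in each library (bars, number of reads, from 0), with unique reads filled, reads shared with other places hatched and 95% exact Poisson intervals of the unique reads as error bars. In each gene both *nifA* libraries lie above both wild-type libraries, and ESW05314 has no shared reads.

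The study's threshold asks for a log2 fold change of 1 or more in either direction with a raw p no higher than 0.02. By it all 3 genes were called higher in *nifA* nodules in edgeR's quasi-likelihood test, as were 387 of the 15507 tested features (2.5%), while 6.6% were called lower. In normalized counts both *nifA* libraries stood above both wild-type libraries in all 3, and in 18.8% of the tested features. None of the 3 had a Benjamini-Hochberg adjusted p under 0.05 in the same test, where 0.174% of the tested features were called higher and 1.38% lower. In that test all 3 were higher with an unadjusted p under 0.05, as were 4.6% of the tested features. DESeq2, which called more features than edgeR at an adjusted p under 0.05, called all 3 higher and 2.04% of the tested features. At this adjusted p edgeR also called all 3 with no filter (340 of 19962 features higher) and with at least 10 reads in every library (160 of 10408). With the replicate number as a block it called 2 of them (118 of 15507). It called none of them with other scaling factors, without scaling factors or with all gene reads. Without wild-type replicate 1, the study's threshold was passed by 2 of the 3 and by 1.46% of the features tested in that fit. Since this comparison chose the genes, these counts describe them and are no support for the difference. Among the log2 fold changes of all tested features, ESW05315 ranked 115, ESW05274 ranked 176 and ESW05314 ranked 231 from the top. The median over all tested features was −0.17.

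How large the difference was depended strongly on what the reads were divided by. The authors' TPM values divide out gene length and set the sum over all bean features to the same total in each library. For ESW05315 they were 20.6 and 20.8 TPM in *nifA* and 10.3 and 7.0 TPM in wild-type nodules. For ESW05274 they were 7.97 and 9.39 TPM in *nifA* and 5.16 and 3.38 TPM in wild-type nodules. The groups stayed apart in both genes, but the geometric means differed only 2.43-fold for ESW05315 and 2.07-fold for ESW05274. For ESW05314 the values were 7.83 and 11.7 TPM in *nifA* and 8.71 and 3.38 TPM in wild-type nodules. On this scale the groups of ESW05314 overlapped, since wild-type replicate 1 stood above *nifA* replicate 1.

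The 10 features with the highest mean TPM made up 92.4% and 88.8% of the TPM total in *nifA* libraries, against 39.6% and 73.7% in wild-type libraries. When these 10 were left out and TPM was set to the same total again, ESW05314 had 104 and 104 TPM in *nifA* and 14.4 and 12.8 TPM in wild-type nodules. Its groups no longer overlapped, and the geometric means differed 7.62-fold. The same step gave 10.5-fold for ESW05315 and 8.95-fold for ESW05274, close to the 9.58-fold and 7.86-fold of the TMM-normalized counts. The most abundant feature by all gene reads was ESW04729 (PHAVU_011G120500g) in every library, which also lies on chromosome 11 and whose function the sources used here do not give. It held 26.5% and 27.1% of all bean gene reads in *nifA* libraries and 8.18% and 27.8% in wild-type libraries.

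RPKM, which refers to a library total that includes reads outside genes, gave differences of middle size. ESW05315 had 19.3 and 15.6 RPKM in *nifA* and 5.08 and 4.42 RPKM in wild-type nodules. ESW05314 had 7.33 and 8.79 RPKM in *nifA* and 4.28 and 2.14 RPKM in wild-type nodules. ESW05274 had 7.46 and 7.06 RPKM in *nifA* and 2.54 and 2.13 RPKM in wild-type nodules. The groups did not overlap in any of the 3 genes. The CPM of unique bean reads also kept the groups apart in all 3, with folds of the geometric means of 5.49 for ESW05315, 3.73 for ESW05314 and 4.50 for ESW05274. The share of all features whose groups stay apart was not counted on the TPM, RPKM and CPM scales. Separation on these scales therefore only describes the chosen genes. Without scaling factors beyond library size, edgeR called 1 of the 3 genes higher at the study's threshold, and 0.348% of the tested features.

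**Figure D2:**
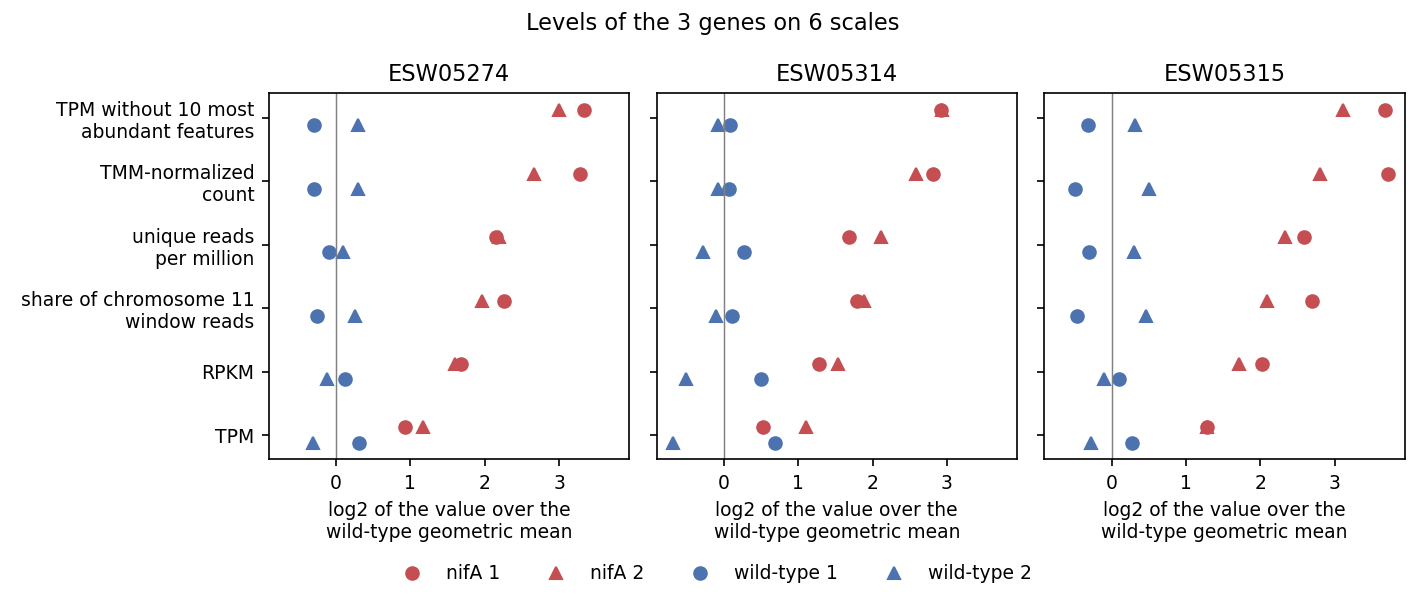
Each library's value of the 3 genes on 6 scales, as the log2 of the value over the geometric mean of the 2 wild-type libraries (x axis), with *nifA* libraries in red and wild-type libraries in blue. The distance between the strains is smallest in TPM, where ESW05314 overlaps, and largest in TMM-normalized counts and in TPM without the 10 most abundant features.

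Within a library the genes can be compared with each other without any scaling between libraries. Per length, as TPM, the order of the averages in both strains was ESW05315, then ESW05314 and ESW05274. In *nifA* replicate 1, however, ESW05274 with 7.97 TPM stood just above ESW05314 with 7.83 TPM. In *nifA* nodules ESW05315 averaged 20.7 ± 0.105 TPM (SD, n = 2), above both other genes in both libraries. ESW05314 with 9.76 ± 2.74 TPM and ESW05274 with 8.68 ± 1.01 TPM did not differ beyond their spread there. In wild-type nodules the averages were 8.66 ± 2.35 TPM for ESW05315, 6.05 ± 3.77 TPM for ESW05314 and 4.27 ± 1.26 TPM for ESW05274. Across the 2 wild-type libraries the ranges of neighbours in this order overlapped, but within each library ESW05315 stood above both other genes. In wild-type replicate 1 its lead over ESW05314 rested on 58 against 48 gene reads. ESW05314 and ESW05274 were nearly equal in wild-type replicate 2 and further apart in replicate 1. ESW05315 had 2.66 and 2.14 times the unique reads of ESW05274 in *nifA* libraries and 1.71 and 2.25 times in wild-type libraries. Against ESW05314 the ratio of unique reads was 1.68 and 1.04 in *nifA* and 0.604 and 1.33 in wild-type libraries. It leaves out the shared reads of ESW05315, while ESW05314 had none. As TPM, from all gene reads, this ratio was 2.63 and 1.77 in *nifA* and 1.19 and 2.07 in wild-type libraries. In these ratios the strains overlapped, and no change in the balance between the genes was detectable in them with 2 libraries each. The TPM ratio of ESW05315 to ESW05274 was 2.59 and 2.21 in *nifA* and at most 2.07 in wild-type libraries, a narrow gap that was not tested. ESW05274 held a nearly constant share of the summed unique reads of the 3 genes, between 18.1% and 20.3% in the 4 libraries.

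Reads that fit more than 1 place were found on ESW05274 and ESW05315 only. Over the 4 libraries 59.8% of the 480 reads of ESW05274 and 60.2% of the 1130 reads of ESW05315 were unique. The share in single libraries was 58.2% to 60.9% for ESW05274 and 50.0% to 63.2% for ESW05315. The lowest of these, in wild-type replicate 1, had a 95% Clopper-Pearson interval of 36.6% to 63.4%, and the intervals of the 4 libraries overlapped for both genes. The files do not say with which places these reads are shared, and values of ESW05274 and ESW05315 with all gene reads are uncertain for that reason. The shared reads of ESW05315 were 2.48 and 2.31 times those of ESW05274 in *nifA* libraries and 2.42 and 1.83 times in wild-type libraries. With all gene reads the log2 fold changes were 3.17 for ESW05315, 2.68 for ESW05314 and 2.91 for ESW05274.

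By TPM, which divides by gene length, the genes ranked high among the bean features in *nifA* nodules, but less so by unique reads. ESW05315 ranked 345 and 587 by TPM among all 32574 features in *nifA* libraries, and 5308 and 3667 in wild-type libraries. ESW05314 ranked 990 and 1045 in *nifA* and 5973 and 6275 in wild-type libraries. ESW05274 ranked 977 and 1325 in *nifA* and 8323 and 6285 in wild-type libraries. All ranks by TPM in *nifA* nodules were thus above all those in wild-type nodules, ESW05314 included, although its TPM values overlapped. The number of features with a TPM above 0 was 16173 and 22279 in *nifA* and 22294 and 24208 in wild-type libraries, so that part of the features below these genes were listed at 0. Among chromosome 11 features alone, ESW05315 ranked 29 and 55 by TPM in *nifA* and 370 and 260 in wild-type libraries. By unique reads, not divided by length, ESW05315 ranked 2252 and 4093 among all features in *nifA* libraries. ESW05314 ranked 3475 and 4206 there, and ESW05274 ranked 4802 and 6570. In these libraries 12153 and 17113 features had a unique read. The wild-type ranks by unique reads lay between 9942 and 13545.

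The neighbourhood was taken as the 59 other features from 10 before ESW05274 to 10 after ESW05315. Of these, 18 had no read in any library and 13 had only shared reads, and 14 overlapped another feature on the same strand. Only 19 had a unique read in every library. The inhibitor genes held 13.7% and 11.1% of the unique reads of this window in *nifA* libraries, and 2.53% and 3.25% in wild-type libraries. The 95% Clopper-Pearson intervals were 10.3% to 12.1% for the lower *nifA* share and 2.77% to 3.79% for the higher wild-type share, and they cover counting error only, not the spread between the 2 libraries of a strain. In *nifA* nodules no neighbour had a higher TPM than ESW05315, while in wild-type libraries 4 and 1 neighbours did. The gene length behind TPM is here the full span from first to last base, which lowers the TPM of long features. In unique reads some neighbours stood above ESW05315 in both *nifA* libraries. Among them were ESW05275 (2656 bases), with 1237 and 1041, and ESW05312 (3884 bases), with 381 and 434.

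**Figure D3:**
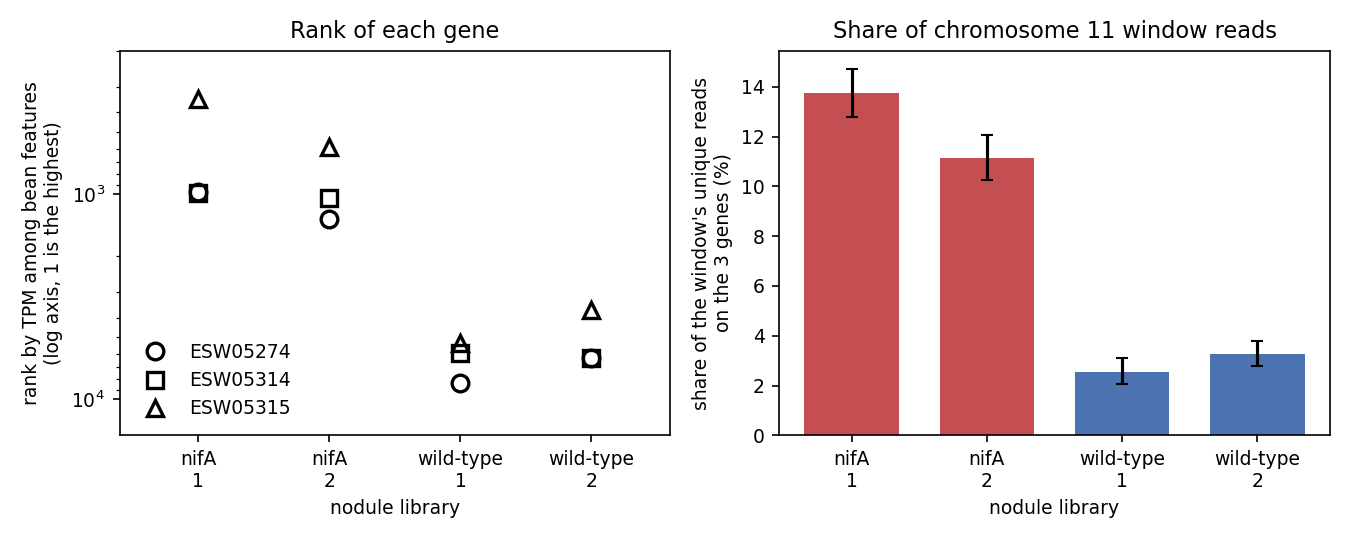
Left, rank by TPM of each gene among all bean features in each library, on a log axis with the highest rank on top. Right, share of the unique reads of the chromosome 11 window on the 3 genes (percent, from 0), with 95% Clopper-Pearson intervals. Ranks and shares in both *nifA* libraries lie above those in both wild-type libraries.

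Of the 59 neighbours, 22 passed the filter on low counts, which a feature can pass through its higher group alone. Among these, 1 was called higher and 0 lower at the study's threshold in edgeR's quasi-likelihood test, and 9.09% of all tested features were called in either direction. None of the 22 had an edgeR adjusted p under 0.05. With an unadjusted p under 0.05 there were 2, against 15.4% of all tested features, and with DESeq2 1 had an adjusted p under 0.05, against 7.94% of them. The median log2 fold change of the 22 was 0.73, beside −0.17 for all tested features. Without scaling factors these medians were 0.02 and −0.91. Both *nifA* libraries stood above both wild-type libraries in 11 of the 22, or 50%, and below them in 3, against 18.8% above and 32.4% below among all tested features.

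The neighbour that passed the threshold was ESW05282 (PHAVU_011G167300g), 108 kb from ESW05274 and also on the reverse strand, which the study describes only as a hypothetical protein. It had 123 and 74 unique reads in *nifA* and 25 and 17 in wild-type libraries, and all of its reads were unique. Its log2 fold change was 2.86 ± 0.88 (SE), with an adjusted p of 0.203 in edgeR. In TPM it had 3.11 and 2.76 in *nifA* and 3.11 and 0.729 in wild-type nodules, so that, as in ESW05314, the groups were not apart on that scale. Under 12 other fits its log2 fold change lay between 1.92 and 3.37 and its adjusted p between 0.0188 and 0.579. It did not pass the study's threshold with the replicate block, without scaling factors, without wild-type replicate 1 or without wild-type replicate 2.

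The features next to the inhibitor genes were described for comparison, with no test of their difference from these genes. ESW05275, the next feature after ESW05274, had 1237 and 1041 unique reads in *nifA* and 1104 and 1047 in wild-type libraries, far more than any of the 3 genes (log2 fold change 0.72 ± 0.38, SE, edgeR adjusted p = 0.438). ESW05273, just before it, varied within both strains, with 5 and 136 reads in *nifA* and 27 and 86 in wild-type libraries. On the side of ESW05314, ESW05313 had 54 and 38 reads in *nifA* and 7 and 42 in wild-type libraries (log2 fold change 1.67 ± 1.25, SE, edgeR adjusted p = 0.627). ESW05312, one further, had 381 and 434 in *nifA* and 444 and 454 in wild-type libraries. None of these 4 features passed the threshold with all libraries. ESW05313 and ESW05273 depended on single libraries. Without wild-type replicate 2 the log2 fold change of ESW05313 was 3.26, and that of ESW05273 was 1.85 without *nifA* replicate 1, where it passed the threshold, and −2.66 without *nifA* replicate 2. ESW05272 and ESW05276 had at most 1 read in any library.

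The first features after ESW05315 are ESW05316 and ESW05317, which cover the same place on the reverse strand from 44080743 to 44082007 and had no unique read in any library. With all gene reads, ESW05316 had 0 and 0 reads in *nifA* and 29 and 71 in wild-type libraries. ESW05317 had 0 and 1 reads in *nifA* and 21 and 65 in wild-type libraries. In edgeR's quasi-likelihood test on all gene reads, the only fit that gave them a value, ESW05316 passed the study's threshold as lower in *nifA* nodules (adjusted p = 0.229), as did 5.83% of the features tested in that fit. ESW05317 did not pass it (edgeR adjusted p = 0.296). Reads on 2 features of one place cannot be split between them.

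**Figure D4:**
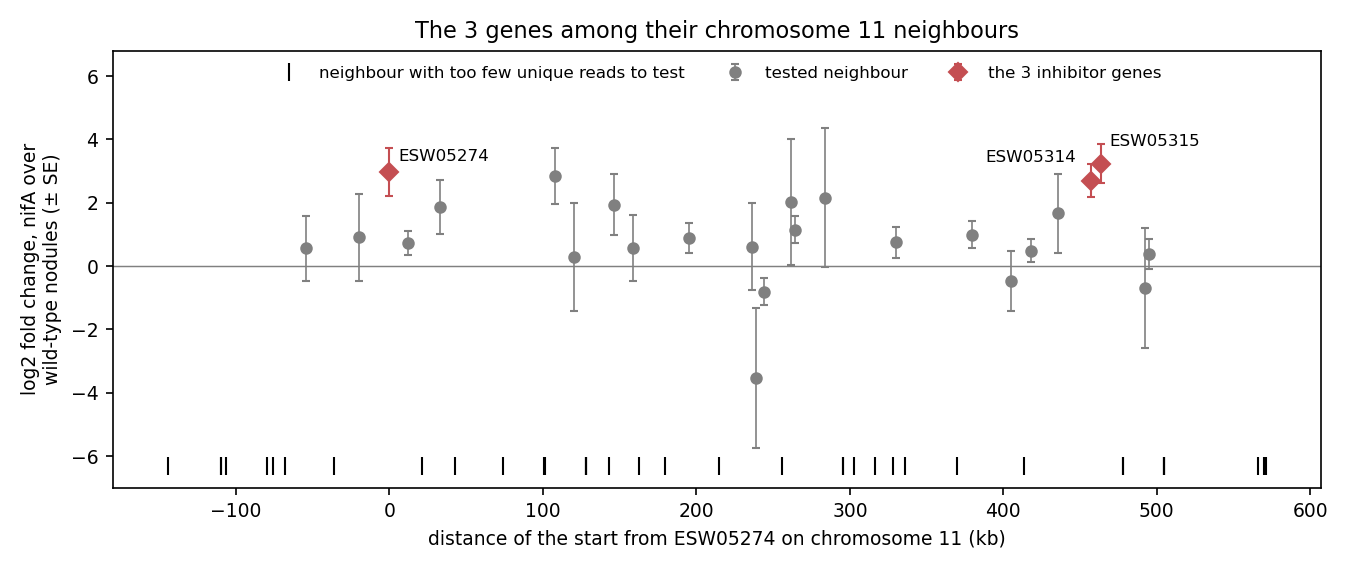
Log2 fold change of *nifA* over wild-type nodules (points, bars are standard errors) against the distance of each feature's start from that of ESW05274 in kb, for the 3 inhibitor genes and the 22 tested neighbours, with ticks for neighbours that were not tested. The inhibitor genes lie between 2.70 and 3.24, and one tested neighbour, ESW05282 at 108 kb, lies at 2.86 while the median of the neighbours is 0.73.

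Other inhibitor genes of bean are not analysed here, because among the feature descriptions that could be read none named an inhibitor or a peptidase. Peptidases could be paired only through the study's gene ontology lists, which rest on these same libraries. These were ESW03695 (serine-type endopeptidase activity, log2 fold change −2.19 ± 0.47, SE) and ESW05743 (aspartic-type endopeptidase activity, −3.52 ± 1.45, SE). Both were lower in *nifA* nodules, and the values only describe them. The study also reports several endopeptidases as more abundant there, which are not among these.

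The profile over the 4 libraries, taken as log2 normalized counts centred on their mean, was set against the mean profile of the 3 genes. The root mean square difference from it was 0.04 for ESW05274, 0.29 for ESW05314 and 0.26 for ESW05315. Among the 7579 other tested features with a mean of at least 100 normalized counts, the closest to this mean profile was ESW24567 on chromosome 4 (0.10), and the next was ESW26361 on chromosome 3 (0.13), both nearer to it than ESW05314 and ESW05315. ESW24567 had 778 and 597 unique reads in *nifA* and 110 and 212 in wild-type libraries. ESW26361 had 219 and 151 in *nifA* and 26 and 55 in wild-type libraries. With 4 libraries in 2 groups, any feature with a like difference between the strains comes close to this profile.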

How the data were processed

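Plant and bacterial RNA was extracted together from nodules, plant ribosomal RNA was removed, and single-end reads were trimmed by the authors to 70 bp and mapped with CLC Genomics Workbench, allowing up to 2 mismatches. For each feature the authors deposited counts of unique and of all gene reads, without normalization, and TPM and RPKM values from all gene reads. Libraries were grouped by the strain in the labels. All bean features were fitted together on unique counts by edgeR 4.0.16 (glmQLFit and glmQLFTest after filterByExpr and TMM, no block; limma 3.58.1, R 4.3.3), with Benjamini-Hochberg adjusted p-values over all of them. DESeq2 1.42.0 was an alternative. Normalized counts refer to a library of mean effective size, and each SE was obtained by dividing the log2 fold change by the square root of F. Log2 ratios of TPM used pseudocounts of 1 and 0.1.

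The code was tested on simulated bean counts of 15507 features. Of 100 features with a true log2 fold change of 3 in either direction, 61 passed the study's threshold. By edgeR's adjusted p under 0.05 only 3 of them were found, so that a change of this size was mostly missed in the simulation. Real features have their own dispersions, so this does not give the chance of finding a single gene. Of 100 with a true log2 fold change of 6, 99 and 84 were found. The study's threshold was also passed by 225 unchanged features, and the adjusted p by 1. Replicates were not duplicates of one library (chi-square per degree of freedom 112 or more). The labels call them separate samples and the methods call them biological replicates.

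The members and the lists were chosen with earlier results of these data known. Named features are the members, 2 features on either side of each, neighbours past the study's threshold, and the 2 closest profiles. ESW04729 falls outside this rule and was chosen after its values were seen. ESW03695 and ESW05743 fall outside it as well. Lists of inhibitors, peptidases and nodule markers by description were void: 0 matches were found in the 1998 bean transcripts of the study's supplementary list that could be read here, a part of that list in which most are hypothetical proteins, and no member was found among 34165 genes in a RefSeq table. Locus tags came from the same 1998 transcripts, all found in the files. The authors' fold changes and p-values were not used.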

Additional observations from a re-analysis of the deposited data

How the results depend on the processing

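The estimates of all 3 inhibitor genes were above 0 under each of 17 other settings. These settings reuse the libraries that chose the genes, so the shared direction is no support for the difference. In TPM the groups of ESW05314 overlapped. In log2 units, ESW05274, ESW05314 and ESW05315 gave 0.89, 0.70 and 1.19 with log2(TPM + 1), 1.03, 0.80 and 1.27 with log2(TPM + 0.1), 1.64, 1.41 and 1.87 with RPKM, 2.11, 1.84 and 2.39 as a share of window reads, and 2.16, 1.89 and 2.42 without scaling factors. ESW05314 gave 2.88 with upper-quartile factors and 2.93 in TPM without the 10 most abundant features. RPKM, window share, the omission of scaling factors and the trimmed TPM were chosen after seeing the data. Leaving out 1 library gave 2.63 to 3.37 for ESW05274, 2.59 to 2.80 for ESW05314 and 2.71 to 3.90 for ESW05315, and without wild-type replicate 1 the study's threshold was passed by 2 of the 3. A lone library was assumed to vary like the other group.

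Features called higher numbered 641 with no filter, 54 without scaling factors and 238 to 761 when 1 library was left out (238 without wild-type replicate 1, 743 without *nifA* replicate 1, 761 without *nifA* replicate 2). Those called lower were 738 to 3341, with 1662 without *nifA* replicate 1 and 3341 without *nifA* replicate 2. With upper-quartile factors, 552 were higher and 848 lower, against 387 and 1023. Without scaling factors 54 were higher and 1470 lower, and the median of all features was −0.91. With at least 10 reads in every library 526 were higher and 847 lower. Neighbours called higher were 2 with upper-quartile factors or at least 10 reads in every library, 0 with the replicate block or without scaling factors, and 0 to 3 when 1 library was left out (3 without *nifA* replicate 1, 2 without *nifA* replicate 2, 0 without wild-type replicate 1). With all gene reads 1 neighbour, ESW05316, was called lower. At an adjusted p under 0.05, 27 features were higher and 214 lower in the reported fit, 340 and 1012 with no filter, 160 and 385 with at least 10 reads, 316 and 915 with DESeq2, 4 and 57 with all gene reads, 118 and 495 with the block, and 4 and 308 without scaling factors. The cause of these shifts was not tested.

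Replicate numbers are shared by name only (correlation of same-numbered deviations 0.06). With the replicate number as a block, 395 features were higher and 1102 lower, and the inhibitor genes gave 2.96, 2.70 and 3.23. The fixed alternatives for the list of inhibitors were not run, since that list was void.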
